A study of Homo sapiens with 3 samples.

Results

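The RNAs described here are 8 short non-coding RNAs of human cells, namely RN7SL1, RN7SL2, RN7SK, RMRP, RPPH1, VTRNA1-1, RNY1 and RNY3. They were taken by name, as the transcript rows of the count table whose identifier carries one of these gene names in GENCODE v44, and each gene had a single row, so that they make up 8 of the 213543 rows of the table and 8 of its 128039 named transcript rows. The data are RNA-seq of THP-1, an acute monocytic leukemia cell line with an MLL-AF9 fusion gene, before and during inhibition of the histone demethylase LSD1. The groups were untreated cells (0 h), cells given 0.2 µM GSK-LSD1 for 8 h and cells given 0.2 µM GSK-LSD1 for 24 h, all of the same cell line, with 1 library each. Libraries were built from 500 ng of total RNA after removal of ribosomal RNA, with fragments of about 300 bp. Because each time was sequenced once, each difference given here compares libraries, not conditions, and no p-value is given.

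These RNAs work as parts of RNA-protein particles and are transcribed by RNA polymerase III, the polymerase that also makes tRNAs and 5S ribosomal RNA. RN7SL1 and its copies encode 7SL, the RNA of the signal recognition particle, which directs ribosomes that make secreted and membrane proteins to the endoplasmic reticulum. RN7SK encodes 7SK, which together with LARP7, MEPCE and the HEXIM proteins keeps the elongation factor P-TEFb in an inactive particle. RMRP and RPPH1 are the RNAs of the ribozymes RNase MRP, which acts in ribosomal RNA maturation, and RNase P, which trims the leading end of tRNAs. VTRNA1-1 is a vault RNA, found in part in the vault particle, and RNY1 and RNY3 are Y RNAs, bound by the Ro60 and La proteins.

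In total, 1475938 reads were counted in the untreated library, 1310912 in the 8 h library and 1444011 in the 24 h library. Library sizes were scaled by TMM factors of 1.04, 0.961 and 1.0 in the same order, and CPM below is the count scaled to that library size. Where a row is at 0, up to 3 counts are still possible, a level of 1.96 CPM for the untreated library, 2.38 CPM for 8 h and 2.08 CPM for 24 h. Such limits, like the intervals below, speak for counting error alone, because the reads carry no molecular identifiers and need not be independent molecules. In RNA from bulk cells, fewer cells that make an RNA and less of it per cell cannot be told apart.

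Markers of the labelled cell type could be checked in part. Of 10 monocytic markers, 6 had a row under a gene name, and CD14, LYZ, SPI1 and CD68 had none. CD33, a myeloid surface receptor, had 67 counts in untreated cells, 44 at 8 h and 45 at 24 h, mainly in retained-intron rows. The 6 genes summed to 77, 50 and 49 counts, and the rows named MPO and CD86 were at 0 in each library. Coding transcripts of these genes may stand under protein accessions, which carry no gene name in the files. The markers' rows thus do not measure whether the genes were expressed. By RNA-seq and flow cytometry, the study itself reports that CD86 rose steadily over 24 h. Of the markers of other cell types, CD3E, HBB, EPCAM and COL1A1 were at 0 in each library.

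Of the 8 RNAs, 4 had a count in any library and 2 had at least 10 counts in a library. By these counts the name "abundant" held for RN7SL1 alone. A row at 0 does not show that its RNA was scarce in the cells. The counting tool and the treatment of shared reads are not given in the sources used here. RN7SL1 had 3340 counts in untreated cells, 4409 at 8 h and 4480 at 24 h. RNY1 had 15, 26 and 40 counts, RNY3 had 3, 0 and 2, and VTRNA1-1 had 1, 2 and 1. RN7SL2, RN7SK, RMRP and RPPH1 were at 0 in each of the 3 libraries. RN7SL1 thus held 99.4% of the counts of the 8 RNAs in the untreated library (95% Wilson interval 99.1% to 99.6%), 99.4% in the 8 h library (99.1% to 99.6%) and 99.0% in the 24 h library (98.7% to 99.3%), and the sum of the 8 RNAs describes RN7SL1 and little else.

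**Figure D1:**
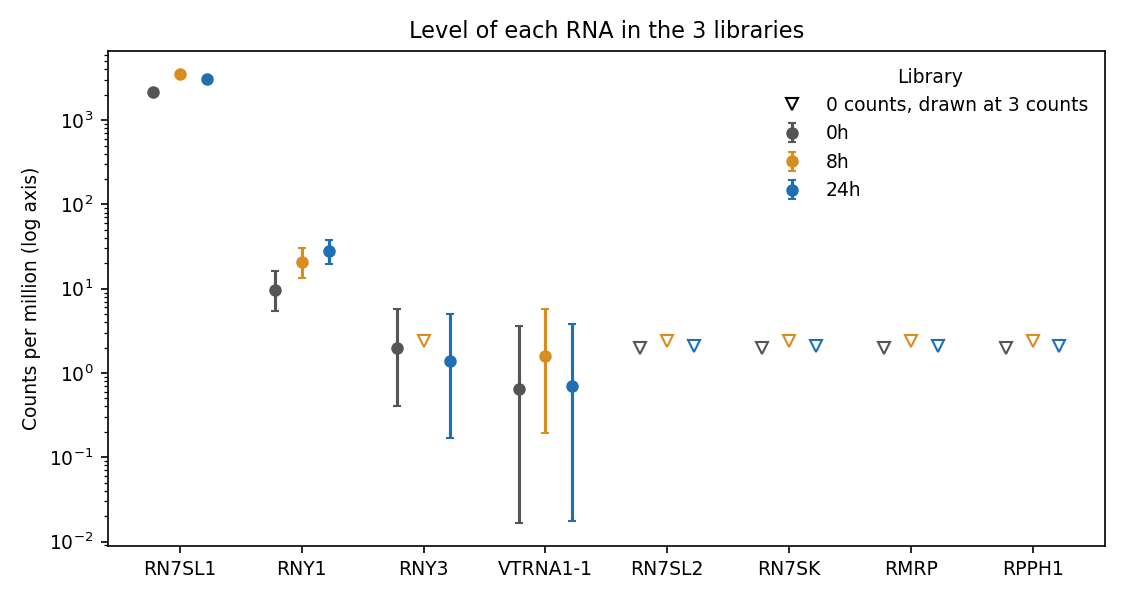
Level of each of the 8 RNAs in the libraries at 0 h, 8 h and 24 h, in CPM on a log axis, with 1 point per library, exact 95% Poisson intervals as error bars and open triangles at 3 counts for rows at 0. RN7SL1 lies at 2177, 3498 and 3101 CPM, RNY1 at 9.78, 20.6 and 27.7 CPM, and RN7SL2, RN7SK, RMRP and RPPH1 are at 0 in each library.

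RN7SL1 is a gene of 1 exon and 299 bases on chr14:49586580-49586878 of GRCh38 (hg38), forward strand (row ENST00000618786.1). It lies in an intron of RPS29, which is transcribed from the other strand, and no exon of another gene overlaps it on its own strand. RN7SL2 (chr14:49862550-49862849, reverse strand, 300 bases, ENST00000490232.3) and RN7SL3 (chr14:49853616-49853914, reverse strand, 299 bases, ENST00000610674.1), which is a further functional 7SL gene, lie on the same chromosome. The transcripts of GENCODE v44 were aligned because the counts of these genes depend on how reads of near-identical copies were assigned. RN7SL2 differs from RN7SL1 by 4 substitutions and 1 extra base, an identity of 98.7%, and RN7SL3 by 7 substitutions, an identity of 97.7%. The longest run of bases shared without a difference is 205 for RN7SL1 and RN7SL2 and 123 for RN7SL1 and RN7SL3, so a read can lie in a stretch where the copies are the same.

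RN7SL1 was higher in both treated libraries than in the untreated library. It took 0.226% of all counts at 0 h (0.219% to 0.234%), 0.336% at 8 h (0.327% to 0.346%) and 0.310% after 24 h (0.301% to 0.319%). By counts, with no regard to length, it ranked number 31 of all rows in untreated cells, 23 at 8 h and 26 at 24 h, and number 1 of the named transcript rows in each library, of whose counts it held 2.91%, 4.75% and 4.21%. The log2 ratio of the scaled counts was 0.68 at 8 h against 0 h, with an exact (Clopper-Pearson) 95% counting interval of 0.62 to 0.75, and 0.51 at 24 h against 0 h (0.45 to 0.58). These are folds of 1.61 and 1.42. Between the treated libraries the ratio was -0.17 at 24 h against 8 h (-0.23 to -0.11), so the 24 h library lay between the others. The 8 RNAs summed had 3359, 4437 and 4523 counts and log2 ratios of 0.69 (0.62 to 0.75), 0.52 (0.45 to 0.58) and -0.17 (-0.23 to -0.11) in the same order. Without RN7SL1 the sums were 19, 28 and 43 counts, with ratios of 0.84 (-0.05 to 1.77), 1.27 (0.46 to 2.13) and 0.42 (-0.30 to 1.16).

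How far RN7SL1 stood apart depends on the rows it is set beside. Of the 9609 rows with at least 10 counts in a library, called tested rows below, 11.9% had a higher log2 ratio than RN7SL1 at 8 h and 18.6% at 24 h, both against 0 h, and the medians over these rows were 0.01 and -0.04. Many of these rows are low, and their ratios scatter widely. Of the 165 rows with at least 1000 counts in each library, 5 (3.03%) were above RN7SL1 at 8 h and 14 (8.48%) at 24 h, beside medians of 0.16 and 0.10.

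RNY1 was the member past a log2 ratio of 1 in both comparisons with the untreated library. At 8 h against 0 h, 1 of the 2 RNAs with at least 10 counts was past 1, beside 14.2% of all tested rows in either direction. At 24 h against 0 h it was again 1 of 2, beside 15.9%, and at 24 h against 8 h it was 0 of 2, beside 8.7%. The counting interval lay wholly above 0 for both RNAs at 8 h, beside 12.5% of all tested rows, for both at 24 h, beside 11.6%, and for 0 of 2 at 24 h against 8 h, beside 3.51%. These intervals narrow as counts rise, and RN7SL1 was among only 165 of 9609 tested rows with at least 1000 counts in each library. The shares over all tested rows are thus no like comparison for RN7SL1. Scaled by total counts, RNY1 at 8 h against 0 h had 0.96 (-0.01 to 1.99), neither past 1 nor wholly above 0. With 2 RNAs counted, these shares are a description of RN7SL1 and RNY1 and not of the 8 RNAs.

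**Figure D2:**
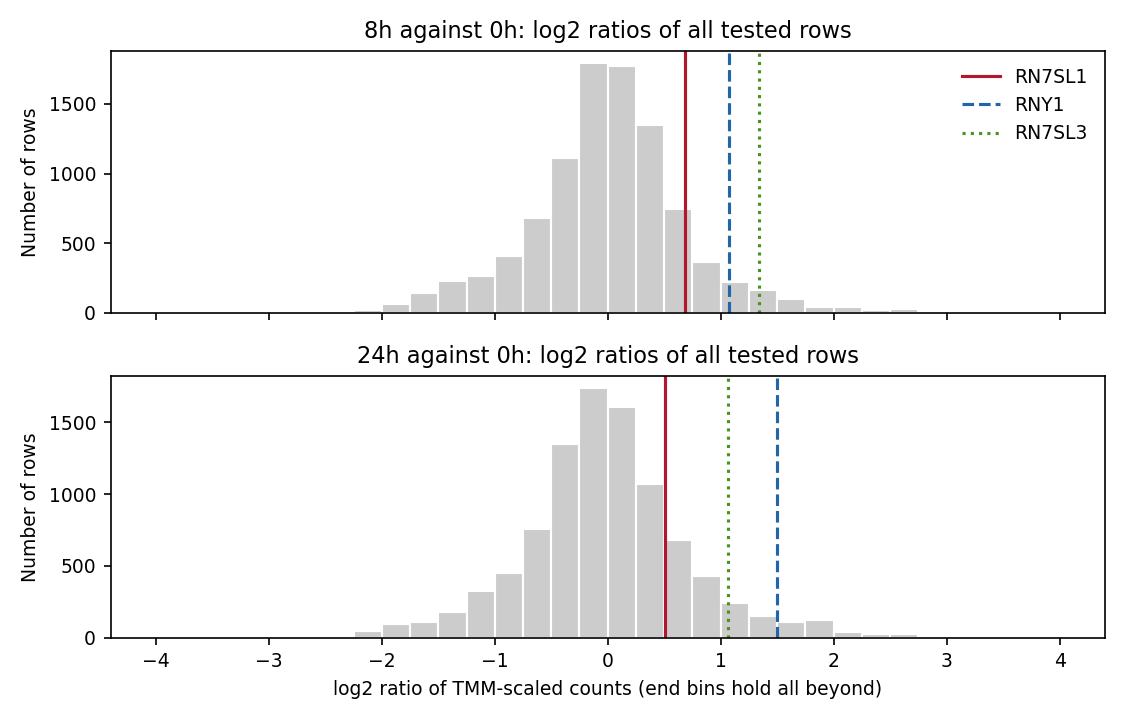
Number of tested rows (9609, vertical axis) in each bin of the log2 ratio of TMM-scaled counts (horizontal axis), at 8 h against 0 h (upper panel) and 24 h against 0 h (lower panel), with vertical lines at RN7SL1 (0.68 and 0.51), RNY1 (1.08 and 1.5) and RN7SL3 (1.34 and 1.06). The lines lie to the right of the medians of 0.01 and -0.04, and the end bins hold all rows beyond them.

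RN7SL3, the other functional 7SL gene with counts, was higher in the treated libraries too. RN7SL3 had 331 counts in untreated cells, 688 at 8 h and 652 at 24 h. Its log2 ratio was 1.34 at 8 h (1.15 to 1.53) and 1.06 after 24 h (0.87 to 1.26), both intervals lying above those of RN7SL1. Since both RNAs have 299 bases, their counts can be set beside each other directly. RN7SL3 took 9.02% of the counts of RN7SL1 and RN7SL3 in untreated cells (Wilson, 8.13% to 9.99%), 13.5% at 8 h (12.6% to 14.5%) and 12.7% after 24 h (11.8% to 13.6%). This share does not depend on library scaling, and the interval at 0 h overlapped neither of the others, while those at 8 h and 24 h overlapped. The part of reads shared between the copies in this difference was not tested.

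RN7SL4P, a pseudogene of 295 bases in an intron of ANKRD28 (chr3:15738515-15738809), had 39, 82 and 88 counts. Its log2 ratios were 1.36 at 8 h (0.79 to 1.94) and 1.26 after 24 h (0.70 to 1.84), and its share beside RN7SL1 was 1.15% at 0 h (0.845% to 1.57%), 1.83% at 8 h (1.47% to 2.26%) and 1.93% after 24 h (1.57% to 2.37%). The interval of this share at 0 h overlapped both others. It has 87.3% identity to RN7SL1 and shares a run of 133 bases with it. RN7SL471P, with 77.9% identity and a longest shared run of 15 bases, had 28, 31 and 20 counts and ratios of 0.43 (-0.35 to 1.22) and -0.40 (-1.30 to 0.48). The pseudogene closer in sequence was thus higher in the treated libraries, and for the more distant pseudogene both intervals included 0.

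**Figure D3:**
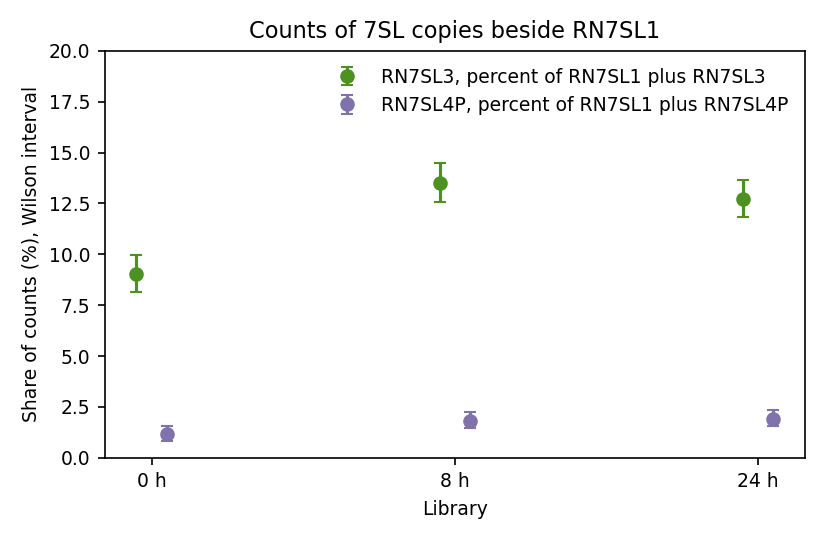
Share of counts (%, vertical axis) that RN7SL3 takes of RN7SL1 plus RN7SL3, and that RN7SL4P takes of RN7SL1 plus RN7SL4P, in the libraries at 0 h, 8 h and 24 h, with Wilson 95% intervals as error bars. The share of RN7SL3 is 9.02%, 13.5% and 12.7%, and that of RN7SL4P is 1.15%, 1.83% and 1.93%.

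Over the whole 7SL family, 850 rows by gene name, the counts were 3997 in untreated cells, 5573 at 8 h and 5629 at 24 h. The log2 ratio of the family was 0.76 at 8 h (0.70 to 0.82) and 0.58 after 24 h (0.52 to 0.64). Binned by identity to RN7SL1, the 79 copies of 85% to 95% identity had 84, 159 and 153 counts in sum and ratios of 1.20 (0.81 to 1.60) and 0.95 (0.56 to 1.35). The 768 copies under 85% identity had 242, 317 and 344 counts and ratios of 0.67 (0.43 to 0.92) and 0.59 (0.35 to 0.84). Each of these bins, in sum, was higher in the treated libraries, and which copy the reads came from was not tested. RN7SL2, the copy with the fewest differences from RN7SL1, was at 0 throughout.

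RN7SK (chr6:52995621-52995948, forward strand, 328 bases, ENST00000636484.1) was at 0 in each library, while its pseudogenes were not. Of 300 other rows of the 7SK family, 66 had a count, and they summed to 72 in untreated cells, 123 at 8 h and 140 at 24 h. Their log2 ratio was 1.06 at 8 h (0.63 to 1.5) and 1.05 after 24 h (0.63 to 1.48). The 17 copies of 85% to 95% identity to RN7SK had 20, 55 and 60 counts and ratios of 1.74 (0.98 to 2.56) and 1.67 (0.92 to 2.48). The 282 copies under 85% had 52, 68 and 80 counts and ratios of 0.67 (0.13 to 1.22) and 0.71 (0.19 to 1.24). In the 7SK and the 7SL family alike, the copies of 85% to 95% identity had higher ratios than those under 85%, with overlapping intervals.

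The pseudogenes of 7SK with the most counts carry long stretches of the gene's own sequence. RN7SKP255 had 12, 25 and 21 counts (85.1% identity, longest shared run 103 bases), RN7SKP80 had 10, 17 and 26 (81.1%, 128 bases) and RN7SKP203 had 2, 12 and 18 (87.2%, 143 bases). A read that lies within such a run has the same bases in the gene, at 0 counts, and in the pseudogene. How a read of such a stretch was assigned is not given in the sources used here, so the count of each copy in the family is uncertain, and whether the pseudogenes hold reads of RN7SK was not tested.

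RMRP (chr9:35657754-35658017, reverse strand, 264 bases, ENST00000363046.1) and RPPH1 (chr14:20343075-20343407, reverse strand, 333 bases, ENST00000516869.1), the RNA subunits of the ribozymes, had no counts. The other row of the RNase MRP family and the 2 other rows of the RNase P family were at 0 as well. A difference between the libraries was thus not detectable for either ribozyme RNA.

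RNY1 (chr7:148987136-148987248, reverse strand, 113 bases, ENST00000364228.1) and RNY3 (chr7:148983755-148983856, forward strand, 102 bases, ENST00000365484.1) lie beside each other. Y RNAs share their paired ends while differing in the loop between them, and here 11 bases at the 5′ end and 5 bases at the 3′ end are the same in both. RNY1 and RNY3 have 72.6% identity over their length, and no shared run is longer than 11 bases.

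RNY1 had 9.78 CPM at 0 h (exact Poisson interval 5.47 to 16.1), 20.6 at 8 h (13.5 to 30.2) and 27.7 after 24 h (19.8 to 37.7). The untreated library was the lowest, and its interval overlapped that at 8 h but not that at 24 h. The log2 ratio was 1.08 for 8 h over 0 h (0.11 to 2.10), 1.5 for 24 h over 0 h (0.61 to 2.46) and 0.42 for 24 h over 8 h (-0.32 to 1.20). Scaled by total counts the ratio at 8 h was 0.96, under 1, and its interval then reached below 0 (-0.01 to 1.99). Of all tested rows, 5.44% had a higher ratio than RNY1 at 8 h and 3.47% at 24 h. RNY3 had at most 3 counts in a library, and no ratio is given for it.

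For the sum of the other Y RNA rows, the intervals included 0. The 810 rows of Y RNA copies other than RNY1 and RNY3 had 155 counts in untreated cells, 119 at 8 h and 151 at 24 h, with log2 ratios of -0.10 (-0.45 to 0.26) and 0.05 (-0.28 to 0.38). The interval at 8 h overlapped that of RNY1, and the interval at 24 h lay below it. With them summed to the members, the family had 173, 145 and 193 counts and ratios of 0.03 (-0.30 to 0.36) and 0.24 (-0.06 to 0.55). Among the copies with the most counts, the row ENST00000391254.1 on chromosome 3 (102 bases, 81.4% identity to its nearer member) had 25, 6 and 4 counts and ratios of -1.78 (-3.35 to -0.45) and -2.56 (-4.54 to -1.02). ENST00000365352.1 on chromosome 1 (86.7% identity) had 23, 20 and 31 counts and ratios of 0.08 (-0.86 to 1.01) and 0.52 (-0.31 to 1.36). ENST00000383924.1 on the same chromosome (92.0% identity) had 9, 6 and 11 counts and ratios of -0.30 (-2.07 to 1.35) and 0.38 (-1.03 to 1.83). At 24 h RNY1 and ENST00000391254.1 thus lay on opposite sides of 0, and the intervals of the other copies named included 0.

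VTRNA1-1 (chr5:140711275-140711373, forward strand, 99 bases, ENST00000363120.1) had at most 2 counts in a library. VTRNA1-3, a neighbouring vault RNA gene, had 0, 2 and 3 counts, and VTRNA1-2 and VTRNA2-1 were at 0. The vault RNA copies ENST00000516676.1 (0, 1 and 1 counts) and ENST00000516474.1 (1, 0 and 0 counts) were as low. No ratio is given for them, and the vault RNAs could not be followed at this depth. VTRNA1-1, RNY1 and RNY3 are shorter than the fragments of about 300 bp that the libraries were made for, and the part of this in their low counts was not tested.

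Between genes, levels can be compared per length. RN7SL1 had 7281 CPM per kilobase at 0 h, 11699 at 8 h and 10371 at 24 h. RN7SL3 followed with 722, 1826 and 1509 CPM per kilobase, and RNY1 had 86.5 (exact Poisson interval 48.4 to 143), 183 (119 to 267) and 245 (175 to 334). For RNY3 the intervals were 3.95 to 56.0 at 0 h and 1.64 to 49.0 at 24 h, and its 0 counts at 8 h allow up to 23.3 by the limit of 3 counts. The order from RN7SL1 to RNY1 held in each library, RNY1 and RNY3 overlapped at 0 h only, and RNY3 and VTRNA1-1 (0.167 to 36.7, 1.94 to 57.9 and 0.177 to 39.0) overlapped throughout. With 200 bases taken off the length, a set value and not the fragment size, RN7SL1 had 21989, 35333 and 31323 CPM per kilobase.

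**Figure D4:**
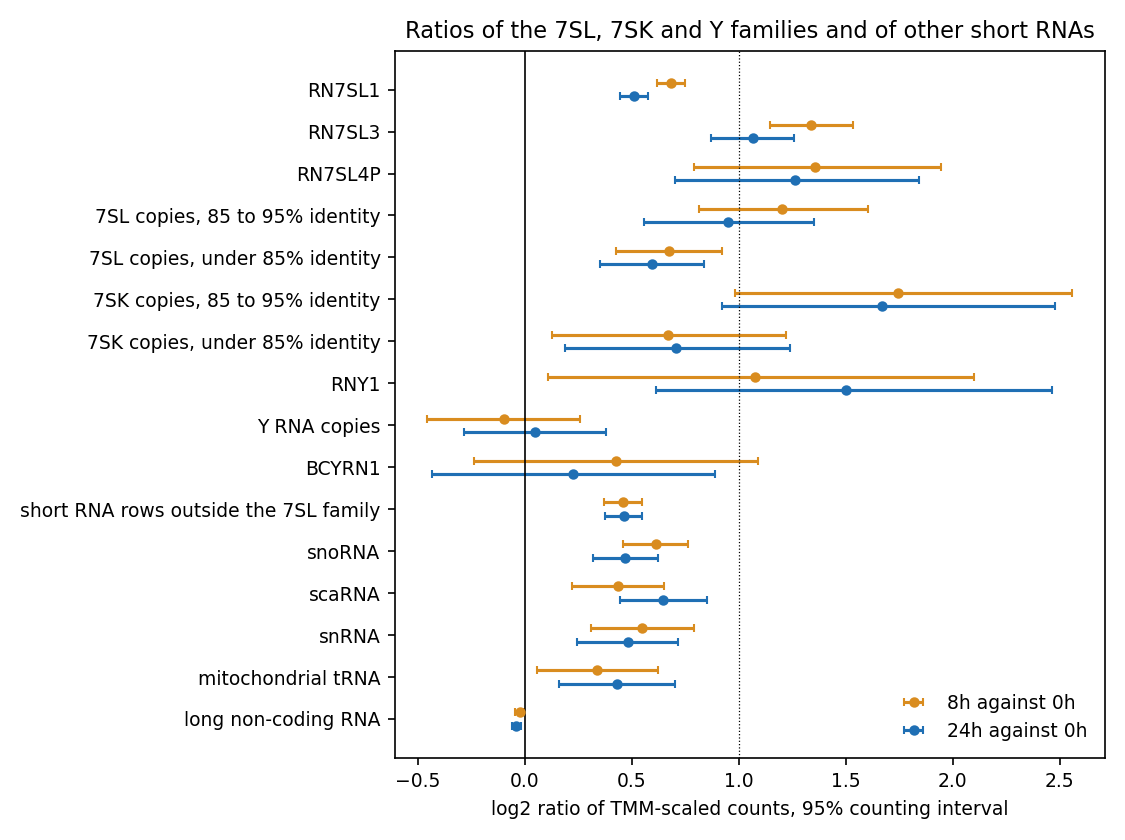
Log2 ratios of TMM-scaled counts (horizontal axis) at 8 h against 0 h and 24 h against 0 h for RN7SL1, RNY1, copies of the 7SL, 7SK and Y families and other classes of RNA, with exact 95% counting intervals as error bars, a solid line at 0 and a dotted line at 1. RN7SL1 lies at 0.68 and 0.51, the short RNA rows outside the 7SL family at 0.46 and 0.46, and the long non-coding RNAs at -0.02 and -0.04.

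The 4 RNAs at 0 were examined for what the annotation holds at the same place. RN7SL2 lies wholly within exons of the long non-coding RNA gene ENSG00000282885 on the same strand, RN7SK within another entry, named 7SK, and RPPH1 within ENSG00000259001. The rows of these other genes, 2, 1 and 1 in number, were at 0 too. RMRP was at 0 without such an overlap. VTRNA1-1 lies within ENSG00000292256 and had counts, but ENSG00000292256 has 0 rows in the count table, so VTRNA1-1 does not show how an RNA inside a counted gene fared. RN7SL1, RN7SL3, RNY1 and RNY3, which had counts, had no such overlap.

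Over all single-exon rows of at most 400 bases, a count was rarer where the row lay wholly within a same-strand exon of another gene. Of 699 such short RNA rows, 28 had a count in any library (4.01%, Wilson interval 2.79% to 5.73%), against 1161 of 6602 without such an overlap (17.6%, 16.7% to 18.5%). For rows typed misc_RNA, the class of 7SL, vault and Y RNAs, it was 5 of 141 (3.55%, 1.52% to 8.03%) against 406 of 2013 (20.2%, 18.5% to 22.0%). For snoRNA rows it was 8 of 203 (3.94%, 2.01% to 7.58%) against 155 of 679 (22.8%, 19.8% to 26.1%). For snRNA rows, 3 of 50 (6.0%, 2.06% to 16.2%) against 252 of 1836 (13.7%, 12.2% to 15.4%), the intervals overlapped. GENCODE v44 may not be the annotation the reads were counted on, and the part of overlapping annotation in the zero counts was not tested.

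**Figure D5:**
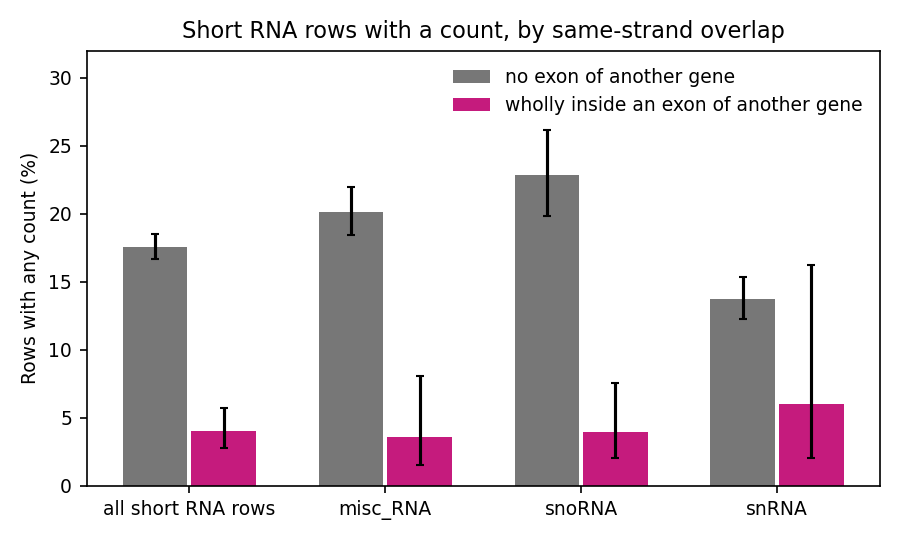
Share of single-exon short RNA rows with a count in any library (%, vertical axis, from 0), for all such rows and for the misc_RNA, snoRNA and snRNA types, where the row overlaps no same-strand exon of another gene (grey) or lies wholly inside one (magenta), with Wilson 95% intervals as error bars. For all rows the shares are 17.6% and 4.01%.

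Other RNAs made by RNA polymerase III gave few counts. Of 17 such genes, 15 had a row and 2 reached 10 counts in a library, namely RN7SL3 and BCYRN1. BCYRN1, the gene of the primate BC200 RNA, whose 5′ part is related to 7SL through Alu elements, had 39, 43 and 43 counts and log2 ratios of 0.42 (-0.23 to 1.09) and 0.23 (-0.43 to 0.89). The U6 genes RNU6-1, RNU6-2, RNU6-7, RNU6-8 and RNU6-9 had at most 3 counts in a library, RNU6ATAC had 3, 1 and 5, and the 5S genes RNA5S1, RNA5S9 and RNA5S17 were at 0. Since 5S is a ribosomal RNA and the libraries were built after removal of ribosomal RNA, its zero counts do not measure its level in the cells. Of 16 genes of telomerase RNA and small nuclear RNAs, all had a row and 2 reached 10 counts. These were the U4 genes RNU4-1, with 3, 15 and 11 counts and ratios of 2.61 (0.78 to 5.04) and 1.96 (0.04 to 4.44), and RNU4-2, with 6, 28 and 29 counts and ratios of 2.51 (1.21 to 4.07) and 2.36 (1.07 to 3.92). U4, the partner of U6 in the spliceosome, is made by RNA polymerase II. The 24 h interval of RNU4-1 ends nearer to 0 than total counts shift that comparison (-0.06), so its side of 0 depends on the scaling. Telomerase RNA (TERC) was at 0.

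Proteins that bind these RNAs could be followed for few genes, since the rows under protein accessions carry no gene names in the files. Of the 6 proteins of the signal recognition particle, 6 had a row and 3 reached 10 counts, in retained-intron rows. SRP9 had 9, 8 and 17 counts and log2 ratios of 0.11 (-1.46 to 1.66) and 1.0 (-0.24 to 2.35). SRP68 had 11, 15 and 15 counts and ratios of 0.73 (-0.49 to 2.0) and 0.53 (-0.69 to 1.80). SRP72 had 5, 9 and 14 counts and ratios of 1.13 (-0.60 to 3.06) and 1.57 (0.02 to 3.40), so that its 24 h interval lay just above 0. Of 7 proteins of the 7SK particle, 5 had a row, and MEPCE, the enzyme that caps 7SK, had 17, 11 and 6 counts in protein-coding rows and log2 ratios of -0.34 (-1.58 to 0.83) and -1.42 (-3.05 to -0.01). For 8 of 10 RNase P and MRP proteins and 5 of 5 vault and Ro proteins there was a row, but 0 of them reached 10 counts. Of 28 genes of RNA polymerase III and its factors, 20 had a row and 4 reached 10 counts, mainly in retained-intron rows. POLR3E, a subunit, had 24, 17 and 14 counts and ratios of -0.21 (-1.20 to 0.74) and -0.69 (-1.76 to 0.32). BRF1, a part of the initiation factor TFIIIB, had 13, 17 and 14 counts and ratios of 0.67 (-0.46 to 1.83) and 0.19 (-1.0 to 1.40). GTF3C1, a subunit of TFIIIC, had 12, 3 and 3, with ratios of -1.72 (-4.18 to 0.17) and -1.91 (-4.38 to -0.02). The 24 h intervals of SRP72, MEPCE and GTF3C1 end nearer to 0 than other scalings shift all ratios of that comparison (-0.06 to 0.03). Under 80% of each of these lists was tested, so no median is given, and counts of retained-intron rows do not measure the coding transcripts.

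Other short RNAs, summed, were higher in the treated libraries as well. The 6676 single-exon short RNA rows outside the 7SL family had 1918 counts in untreated cells, 2167 at 8 h and 2490 at 24 h, with log2 ratios of 0.46 (0.37 to 0.55) and 0.46 (0.38 to 0.55). At 8 h their interval lay below that of RN7SL1 (0.62 to 0.75), and at 24 h the intervals overlapped (0.45 to 0.58 for RN7SL1). The snoRNAs (627, 787 and 818 counts) had ratios of 0.61 (0.46 to 0.77) and 0.47 (0.32 to 0.62). At 8 h the ratio of RN7SL1, 0.68, lay within the intervals of the snoRNAs, of the snRNAs (0.31 to 0.79) and of misc_RNA without the 7SL family (0.25 to 0.74), and under the ratios of the 7SK copies (1.06, with an interval that includes 0.68) and of RNU4-1 plus RNU4-2 (2.54). It lay above the intervals of the scaRNAs (0.22 to 0.65), the miRNA genes (-0.12 to 0.33) and the Y family (-0.30 to 0.36). The scaRNA interval overlapped that of RN7SL1 (0.62 to 0.75), so a difference of RN7SL1 from the scaRNAs was not shown at 8 h. Groups of short RNA rows thus lay on both sides of RN7SL1 at 8 h, but these groups are not all separate. RNU4-1 and RNU4-2 hold 9, 43 and 40 of the 264, 317 and 347 counts of the snRNAs. The misc_RNA group (260, 300 and 356 counts) is the class of the Y RNAs, whose family had 173, 145 and 193. Ratios of the snRNAs and misc_RNA without these parts were not computed. At 24 h the ratio of RN7SL1, 0.51, lay within the intervals of the scaRNAs (0.45 to 0.85) and the Y family (-0.06 to 0.55). It lay above the 24 h interval of the miRNA genes (-0.00 to 0.42). The long non-coding RNAs, with 38101, 30803 and 34891 counts, had ratios of -0.02 (-0.04 to -0.00) and -0.04 (-0.06 to -0.02), the 24 h interval reaching past 0 under another scaling (shift of 0.03). The ratio of RN7SL1 was thus shared in part by short RNAs of other families and not by long non-coding RNAs. A difference of the libraries in how well short RNAs were kept and a difference between the cells cannot be told apart with 1 library per time.

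Mitochondrial ribosomal RNA differed between the libraries far more than RN7SL1 did. The 2 mitochondrial ribosomal RNAs had 2373 counts in untreated cells, 12 at 8 h and 1014 at 24 h, log2 ratios of -7.34 (-8.30 to -6.54) and -1.14 (-1.25 to -1.03). The libraries were built after removal of ribosomal RNA, and the part of that step in this difference was not tested. The mitochondrial tRNAs had 205, 213 and 260 counts and ratios of 0.34 (0.06 to 0.62) and 0.43 (0.16 to 0.70), the 8 h interval reaching below 0 with total counts (shift of -0.11). Set against these tRNAs in place of the library size, RN7SL1 had ratios of 0.35 at 8 h and 0.08 at 24 h, and set against BCYRN1 it had ratios of 0.26 and 0.28. No interval was computed for these 4 values. The 24 h interval of the tRNAs and both intervals of BCYRN1 contain the ratios of RN7SL1, so a difference of RN7SL1 from them was not shown there. The part of the ribosomal RNA difference in the level of RN7SL1 was not tested.

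The rows with the pattern most like that of the summed RNAs were sought among 46 named rows with at least 100 counts in each library, by the distance between their log2 ratios at 8 h and 24 h against 0 h. They were RPS2P5 (134, 167 and 177 counts, distance 0.09), RPS28P7 (220, 260 and 289, 0.16), the long non-coding RNA HELLPAR (117, 136 and 143, 0.23), TGFB1 (223, 256 and 330, 0.24) and NELFB (107, 121 and 128, 0.28). RPS2P5 and RPS28P7 are processed pseudogenes of ribosomal protein genes, TGFB1 encodes a secreted growth factor, and NELFB encodes a subunit of a factor that pauses RNA polymerase II. Both comparisons share the untreated library, and 3 libraries set few patterns apart.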

How the data were processed

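Untreated THP-1 cells (0 h) and cells under GSK-LSD1 for 8 h or 24 h were sequenced by RNA-seq, 1 library each. The deposited values are whole-number read counts per row, without normalization. The submitters' processing notes and the study's methods name fastp, STAR, hg38 and the Seq2science pipeline. The counting tool, its annotation, the strand setting and the treatment of shared reads are not given in the sources used here. Each of the 3 count columns was assigned to its sample by name.

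Of 140222 rows with Ensembl transcript identifiers, 128039 were named from GENCODE v44 by identifier without version. Rows named by protein accession carry no gene name. Library sizes were scaled by TMM over all rows (edgeR 4.0.16, R 4.3.3). Ratios used no prior count, and a count at or under 3 was set to 3, with no ratio where both were at or under 3. For ratios, the 95% interval is the exact (Clopper-Pearson) one, given the sum of both counts; for shares it is Wilson's and for levels the exact Poisson one. Rows with at least 10 counts in a library were tested against a log2 ratio of 1. Copies were found by gene name and aligned to the member transcripts with Biopython 1.88. Other steps used Python 3.11.15, numpy 2.4.6, pandas 2.3.3, scipy 1.17.1 and matplotlib 3.10.9. The ratio step was tested on simulated counts. Alternatives were DESeq2 1.42.0 size factors, total counts with and without the members or mitochondrial genes, other TMM fits, a prior count, summed copies, other thresholds, filters and lengths.

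The members and the 10 gene lists were chosen with earlier results of these data known. Genes were named by rule, namely the members, list genes with at least 10 counts in a library, the 3 copies with the most counts per family and the 5 rows nearest in pattern. Genes named for having no row or few counts, and the RNA classes, fall outside it, their choice having followed sight of the values. No column was left unmatched (0). Transcript sequences and some genes of the lists are not reported here.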

Additional observations from a re-analysis of the deposited data

How the results depend on the processing

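RN7SL1 stayed above 0 h, with its interval, under each other scaling by library size. Over the 6 other scalings its log2 ratio ran from 0.57 to 0.67 at 8 h against 0 h, from 0.45 to 0.54 at 24 h against 0 h and from -0.14 to -0.09 at 24 h against 8 h. At 8 h against 0 h RN7SL1 and the 8 RNAs summed each had 0.61 with DESeq2 size factors and 0.57 with total counts, with total counts without the 8 RNAs and with total counts without mitochondrial genes. Total counts shifted all ratios of that comparison by -0.11. At 24 h against 8 h DESeq2 size factors gave -0.0896 for RN7SL1 and -0.0849 for the sum. With its copies summed, RN7SL1 had 0.76 at 8 h and 0.58 at 24 h against 0 h.

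Alternatives added after seeing the data were TMM over rows with at least 10 counts, the sum without RN7SL1, and ratios per count of BCYRN1 or of the mitochondrial tRNAs. Per count of BCYRN1, RN7SL1 had 0.26, 0.28 and, at 24 h against 8 h, 0.0230, a change of sign. Per mitochondrial tRNA it had 0.35, 0.0808 and -0.26. These values carry no interval, and no direction is read from them. Without RN7SL1 and RN7SL2, or without RN7SL1, the sum had 0.84, 1.27 and, at 24 h against 8 h, 0.42, again a change of sign, with 19, 28 and 43 counts. For 8 h against 0 h, the number of RNAs past 1 on the log2 scale was 1, and it was 0 with each of the 3 total counts, 0 with a threshold of 2, 2 with a threshold of 1.5-fold and 0 where the whole interval had to lie past 1. At 24 h against 0 h it was 1, and 0 with a threshold of 2 or the whole interval. RNY1 with its family summed had 0.03 and 0.24 against 0 h. Among rows that reach 50 counts, 3.86%, 5.69% and 0.735% were past 1. The stricter filter leaves fewer rows by its construction; for the rest the cause was not tested.

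Each time has 1 library, so no difference has a replicate check. No paired analysis was possible because each group holds 1 library and the result comes from no test. At this depth RN7SL2, RN7SK, RMRP and RPPH1 allow up to 3 counts in each library, and RNY3 and VTRNA1-1 were too low for a ratio.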

Other observations

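Short RNA classes outside the named families also differed between the libraries. The scaRNAs, which guide modification of small nuclear RNAs in Cajal bodies, had 341 counts in untreated cells, 379 at 8 h and 503 at 24 h, with log2 ratios of 0.44 (exact 95% counting interval 0.22 to 0.65) at 8 h against 0 h and 0.65 (0.45 to 0.85) at 24 h against 0 h. The snRNA rows had 264, 317 and 347 counts and ratios of 0.55 (0.31 to 0.79) and 0.48 (0.25 to 0.72). The miRNA genes had 350, 309 and 381 counts and ratios of 0.10 (-0.12 to 0.33) and 0.21 (-0.00 to 0.42), so that both intervals included 0. Under another scaling (shift of 0.03) the 24 h interval of the miRNA genes lay above 0. Within the snRNA rows, the U4 genes RNU4-1 and RNU4-2 together had 9, 43 and 40 counts and ratios of 2.54 (1.48 to 3.76) and 2.24 (1.17 to 3.47). These classes were looked at after the values of the 8 RNAs were seen, and their values compare single libraries.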
